A study of Mus musculus with 14 samples.

Results

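Genes of the interferon response and of antigen processing were followed through doxycycline induction of hemangioblast factors in mouse embryonic stem (ES) cells that were differentiating as embryoid bodies. The set was named by function and holds 39 genes, of which 33 had a probe set that the platform annotation gives to 1 gene, out of 19938 genes measured in this way. Where a gene had several such probe sets, it was represented by the brightest, chosen by the mean over all 14 arrays. That mean was the only measured value in the selection rule, but the genes were picked with earlier results of these arrays known. How many of them were called is therefore a description and not independent evidence that the pathway moved. The other 6 genes (H2-K1, H2-D1, Irgm2, Igtp, Gbp2 and Isg15) had no such probe set and no value is given for them.

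Interferons are secreted proteins that bind receptors on the cell surface and activate Janus kinases and STAT transcription factors. These switch on interferon regulatory factors such as IRF1, and together they drive a wide set of target genes. Interferon gamma signals to the GAS element, and type I interferons act through a complex that includes STAT2 and IRF9 at the interferon-stimulated response element, or ISRE. One branch of the targets makes peptides for display to T cells: the immunoproteasome cuts proteins, the TAP transporter carries the peptides into the endoplasmic reticulum, and trimming and loading factors fit them onto class I molecules. Other branches encode GTPases that attack parasites inside the cell and proteins that block viruses. Early embryonic and ES cells are known for a weak interferon response.

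The ES lines carried ER71 (encoded by Etv2) and GATA2 under doxycycline control, and the titles and the genotype of the induced samples add Scl (encoded by Tal1), which the descriptions leave out. Induced cells received 1 µg/ml doxycycline from day 2 of differentiation, and were collected after 6 h (1 array, day 2.25), 12 h (3 arrays, day 2.5) or 24 h (3 arrays, day 3). Controls of the same days, labelled wild-type, got no doxycycline (1, 3 and 3 arrays). Replicates 1 and 2 of every group came from the line iEGS and replicate 3 from the line iB1, so that line and experiment cannot be told apart. Before differentiation all cells had grown on PMEF feeders. No array of doxycycline-treated cells without the factors was analysed here, so that effects of the drug and of the factors cannot be told apart.

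Values are log2 expression made with RMA, and a difference of 1 is a 2-fold change. Array medians lay between 5.1106 and 5.3506. Replicate 3 of induced 24 h stood somewhat apart, with a mean correlation of 0.9656 with the other arrays, against 0.9765 or more elsewhere. It also had the highest median and the narrowest spread over genes (SD 1.9065, against 2.0414 or more elsewhere). The part of this spread in the 24 h values of dim genes was not tested. Tal1 rose by 2.48 ± 0.239 (SE) at 12 h and 2.30 ± 0.239 at 24 h, and Gata2 and Etv2 were higher on every induced array. The labelled early cells were visible through their markers: the summed linear level of 7 primitive streak and epiblast markers was 5930 to 7560 on control day 2.5 and 5990 to 7520 on control day 3. It was 4500 to 5730 at 12 h and 2130 to 2660 at 24 h of induction, while the sum of 8 endothelial markers went from 362 to 442 in control day 3 to 1440 to 2580 at 24 h. These changes in cell identity move with every result below, and their part in them was not tested. In bulk RNA, fewer cells of a type and less RNA per cell cannot be told apart.

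The promoters of 7 of the genes are shown, each with letters of the elements named above. They were taken from RefSeq (GRCm38.p6), run from 250 bases before to 50 bases after the gene start (position 1), and read 5′ to 3′ on the gene's strand. Capitals mark the ISRE letters, a pair of GAAA with any 2 bases between, on either strand, and the GAS letters TTCNNNGAA, which read the same on both strands. On the other strand, ISRE letters appear as TTTC on either side of the gap. Irf1 (chr11:53769764-53770063, plus strand, the first of its 2 entries) and Psmb8 (chr17:34197945-34198244, plus strand) are shown because they fell 4-fold or more and carry GAS letters without ISRE letters.
Irf1: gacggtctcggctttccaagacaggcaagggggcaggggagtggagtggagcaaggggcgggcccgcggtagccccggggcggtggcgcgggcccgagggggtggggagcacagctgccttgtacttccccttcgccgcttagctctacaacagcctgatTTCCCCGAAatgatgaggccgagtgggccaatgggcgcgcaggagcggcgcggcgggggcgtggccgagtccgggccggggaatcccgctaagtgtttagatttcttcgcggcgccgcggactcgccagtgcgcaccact
Psmb8: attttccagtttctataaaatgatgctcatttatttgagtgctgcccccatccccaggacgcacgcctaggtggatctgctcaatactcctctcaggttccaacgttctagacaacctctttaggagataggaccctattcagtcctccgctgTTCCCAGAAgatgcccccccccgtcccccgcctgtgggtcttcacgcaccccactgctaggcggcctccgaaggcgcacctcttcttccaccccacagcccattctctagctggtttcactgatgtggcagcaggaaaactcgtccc
Gbp2b (chr3:142594597-142594896, plus strand), Irgm1 (chr11:48871371-48871670, minus strand) and Erap1 (chr13:74639603-74639902, plus strand) are shown as genes that fell and carry ISRE letters.
Gbp2b: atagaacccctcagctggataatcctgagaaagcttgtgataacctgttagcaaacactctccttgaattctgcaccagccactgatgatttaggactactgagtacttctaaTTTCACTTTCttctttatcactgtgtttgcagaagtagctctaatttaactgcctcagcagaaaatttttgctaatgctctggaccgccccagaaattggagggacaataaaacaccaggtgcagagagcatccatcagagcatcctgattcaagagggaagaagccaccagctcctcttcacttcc
Irgm1: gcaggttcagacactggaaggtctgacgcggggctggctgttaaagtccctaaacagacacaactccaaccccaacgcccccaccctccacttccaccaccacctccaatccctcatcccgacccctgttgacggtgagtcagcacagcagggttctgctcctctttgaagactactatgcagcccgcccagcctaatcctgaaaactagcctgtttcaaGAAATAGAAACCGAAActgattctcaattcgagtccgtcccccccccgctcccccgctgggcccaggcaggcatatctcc
Erap1: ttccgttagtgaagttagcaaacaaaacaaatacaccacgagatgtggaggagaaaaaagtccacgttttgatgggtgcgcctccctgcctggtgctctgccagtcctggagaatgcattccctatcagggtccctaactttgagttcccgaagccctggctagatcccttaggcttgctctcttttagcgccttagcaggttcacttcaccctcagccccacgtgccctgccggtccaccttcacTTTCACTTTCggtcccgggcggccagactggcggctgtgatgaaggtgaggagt
Irf2 (chr8:46739495-46739794, plus strand), which rose, carries both kinds of letters, and Ifit3 (chr19:34583279-34583578, plus strand), a classical interferon target that was not called, carries 2 runs of ISRE letters.
Irf2: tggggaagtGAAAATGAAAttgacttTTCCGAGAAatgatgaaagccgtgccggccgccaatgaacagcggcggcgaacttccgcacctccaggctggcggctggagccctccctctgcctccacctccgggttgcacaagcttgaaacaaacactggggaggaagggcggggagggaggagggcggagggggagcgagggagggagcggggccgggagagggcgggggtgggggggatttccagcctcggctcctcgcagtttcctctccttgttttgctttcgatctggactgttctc
Ifit3: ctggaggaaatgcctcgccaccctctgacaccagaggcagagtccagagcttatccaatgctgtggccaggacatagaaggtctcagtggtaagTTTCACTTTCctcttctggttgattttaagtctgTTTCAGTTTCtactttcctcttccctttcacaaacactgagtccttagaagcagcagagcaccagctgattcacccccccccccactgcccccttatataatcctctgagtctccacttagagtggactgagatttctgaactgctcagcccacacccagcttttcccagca

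After 24 h of induction, 13 of the 33 measured genes fell, 2 rose and 18 were not called (limma, Benjamini-Hochberg adjusted p under 0.05 over all 19938 genes). Among all genes, 3.43% were called lower, 2.03% higher and 5.46% in either direction. The median change of the 33 genes was -0.45, against -0.004 over all genes. After 12 h, 9 genes fell, 0 rose (2 were higher at an unadjusted p under 0.05) and 24 were not called, with a median of -0.22 against -0.009, while 0.577% of all genes were called lower, 0.813% higher and 1.39% in either direction. At 24 h, 8 of the 13 genes that fell did so at least 2-fold, as did 5 of the 9 at 12 h. Of the genes lower at 12 h, 8 were lower at 24 h as well, which is 88.9% of the 12 h calls and 61.5% of the 24 h calls. All 3 induced arrays lay below all 3 controls for 17 of 33 genes at 24 h (10.9% of all genes) and for 14 at 12 h (7.72%), and above them for 2 genes at each time (7.6% and 6.78%).

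**Figure D1:**
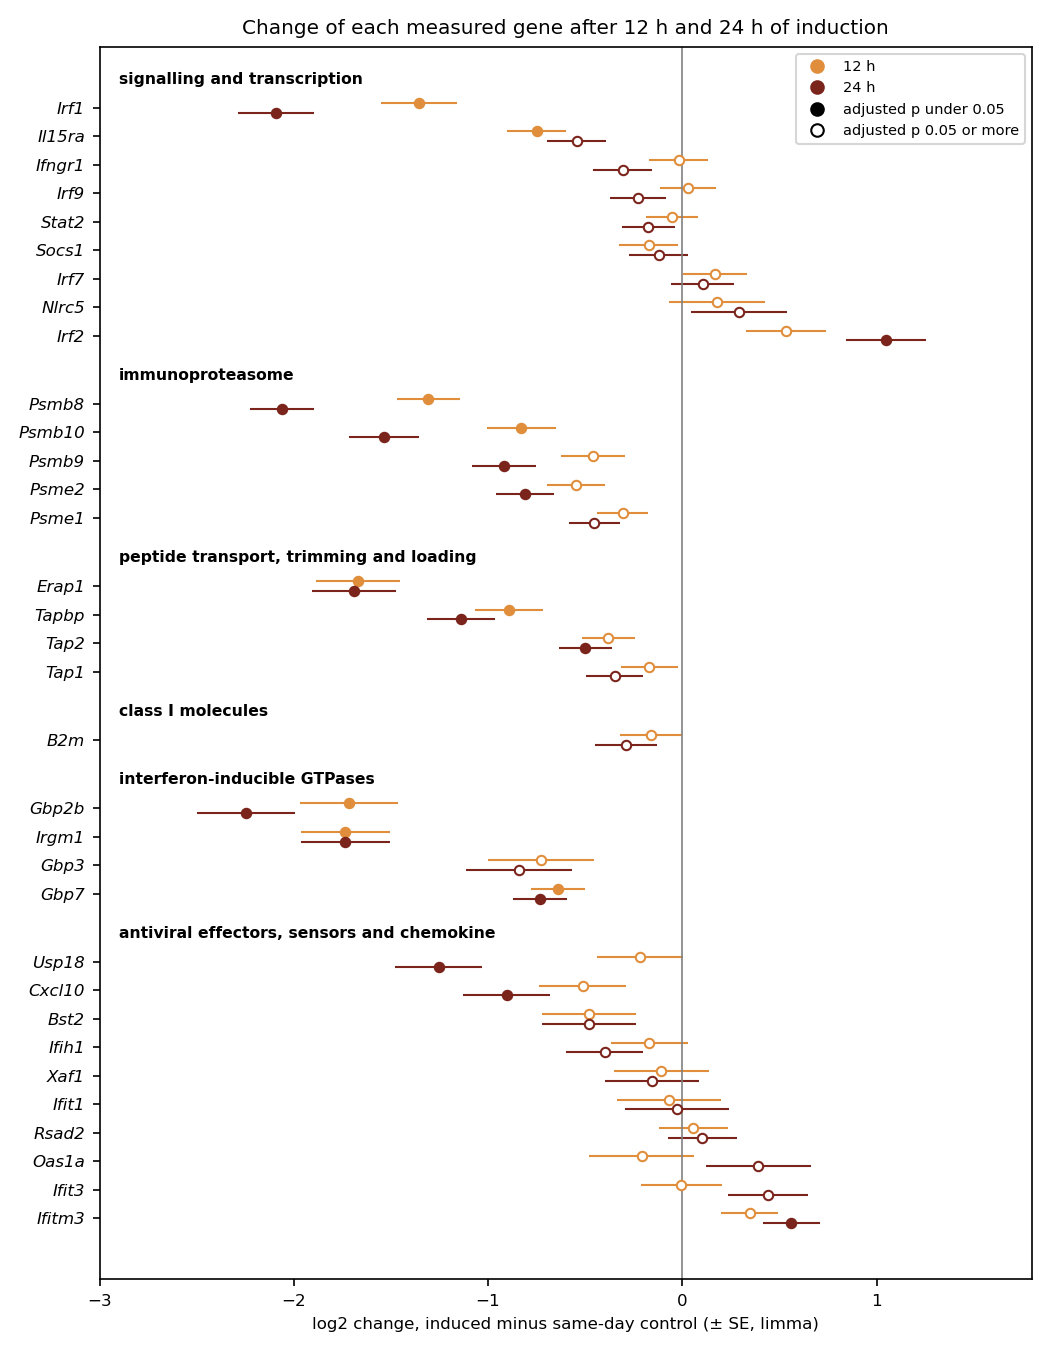
Log2 change of each of the 33 measured genes, induced minus control of the same day, at 12 h (orange) and 24 h (dark red), with limma's standard error as the bar and 3 arrays per group. Filled points have an adjusted p under 0.05; all 5 immunoproteasome genes lie below 0 at both times, and Irf2 and Ifitm3 are the filled points above it at 24 h.

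The calls rested on all 3 replicates to different degrees. Leaving out replicate 2 of every group left 2 of the 9 calls at 12 h (Psmb8 and Gbp2b) and 8 of the 15 at 24 h; leaving out replicate 3 left 3 (Erap1, Irgm1 and Gbp2b) and 7. Leaving out replicate 1 left 6 and 13, with Gbp3 gained at 24 h for a total of 14. At 24 h, Psmb9, Psme2, Tap2, Gbp7, Cxcl10 and Ifitm3 lost their calls without replicate 2 and also without replicate 3. Irf2 lost its call without replicate 2, and Tapbp and Usp18 lost theirs without replicate 3. Without replicate 3 of induced 24 h alone, 13 calls were left at 24 h, and Cxcl10 and Ifitm3 were the genes lost.

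Among the 9 signalling and transcription genes, Irf1 fell at both times and was the furthest changed, Il15ra fell at 12 h, and Irf2 rose at 24 h. Irf1 encodes the activator that induces much of the class I pathway, and Irf2 a relative that binds the same sites and can antagonise it. Irf1 measured 8.48, 8.12 and 8.18 in the day 2.5 controls and 7.21, 6.48 and 7.02 after 12 h. It measured 8.43, 8.33 and 8.18 in the day 3 controls and 6.53, 6.17 and 5.97 after 24 h. The groups did not overlap at either time, and the controls of both days were alike. Irf1 fell by 1.36 ± 0.197 at 12 h (2.56-fold, adjusted p = 0.00162) and by 2.09 ± 0.197 at 24 h (4.26-fold, adjusted p = 9.56e-06). Within same-numbered pairs its difference was -1.27, -1.64 and -1.16 at 12 h and -1.89, -2.16 and -2.21 at 24 h. The gene's other probe set, dimmer on average, fell by 0.69 at 12 h and by 1.19 at 24 h (limma adjusted p = 0.0221 and 9.94e-05 over all probe sets).

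Irf2 ran the other way. It measured 5.58, 5.49 and 5.52 in the day 2.5 controls and 6.00, 5.84 and 6.34 after 12 h, and 5.85, 5.89 and 6.61 in the day 3 controls against 7.45, 7.07 and 6.97 after 24 h. All induced arrays were above their controls, but the day 3 control of replicate 3 was higher than the other controls and lay 0.37 below its induced partner, where the other pairs differed by 1.60 and 1.18. Irf2 was 0.53 ± 0.206 higher at 12 h, which did not pass (adjusted p = 0.461), and rose by 1.05 ± 0.206 at 24 h (2.07-fold, adjusted p = 0.00593). Leaving out replicate 1 or replicate 2 ended that call. Between the induced groups, Irf2 was the only 1 of the 33 genes called, higher at 24 h than at 12 h by 1.10 ± 0.206 (adjusted p = 0.0127), where 1.81% of all genes were called (0.557% higher). Leaving out replicate 1 or replicate 2 ended that call too. The replicate block added Irf1, which was lower at 24 h than at 12 h, and Ifit3, which was higher.

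Il15ra, the alpha chain of the receptor for interleukin 15, measured 5.71, 5.65 and 5.64 in the day 2.5 controls and 4.85, 4.81 and 5.08 after 12 h. It fell by 0.75 ± 0.151 there (adjusted p = 0.0203), a call lost on leaving out any 1 replicate. At 24 h it measured 5.0, 5.46 and 5.29 against 5.96, 5.82 and 5.60, and the difference of -0.54 ± 0.151 had an adjusted p of 0.0532, or 0.0408 with a replicate block. The other 6 genes of the group were called at neither time. They are Stat2 and Irf9 (parts of the complex that binds the ISRE), Irf7 (an activator of type I interferon genes), Nlrc5 (the activator of class I genes), Socs1 (a feedback inhibitor of Janus kinases) and Ifngr1 (a subunit of the interferon gamma receptor). Nlrc5 measured 7.17, 7.87 and 7.41 in the day 2.5 controls and 7.54, 7.62 and 7.83 at 12 h, and 7.44, 7.82 and 7.90 in the day 3 controls and 7.48, 8.0 and 8.56 at 24 h, groups that overlap. Its change at 24 h was 0.29, with a 95% interval of -0.23 to 0.82, and 0 of its 19 probe sets were called. For Stat2 the interval at 24 h ran from -0.47 to 0.12, for Irf9 from -0.54 to 0.08, for Irf7 from -0.25 to 0.46, for Socs1 from -0.45 to 0.20 and for Ifngr1 from -0.64 to 0.02.

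**Figure D2:**
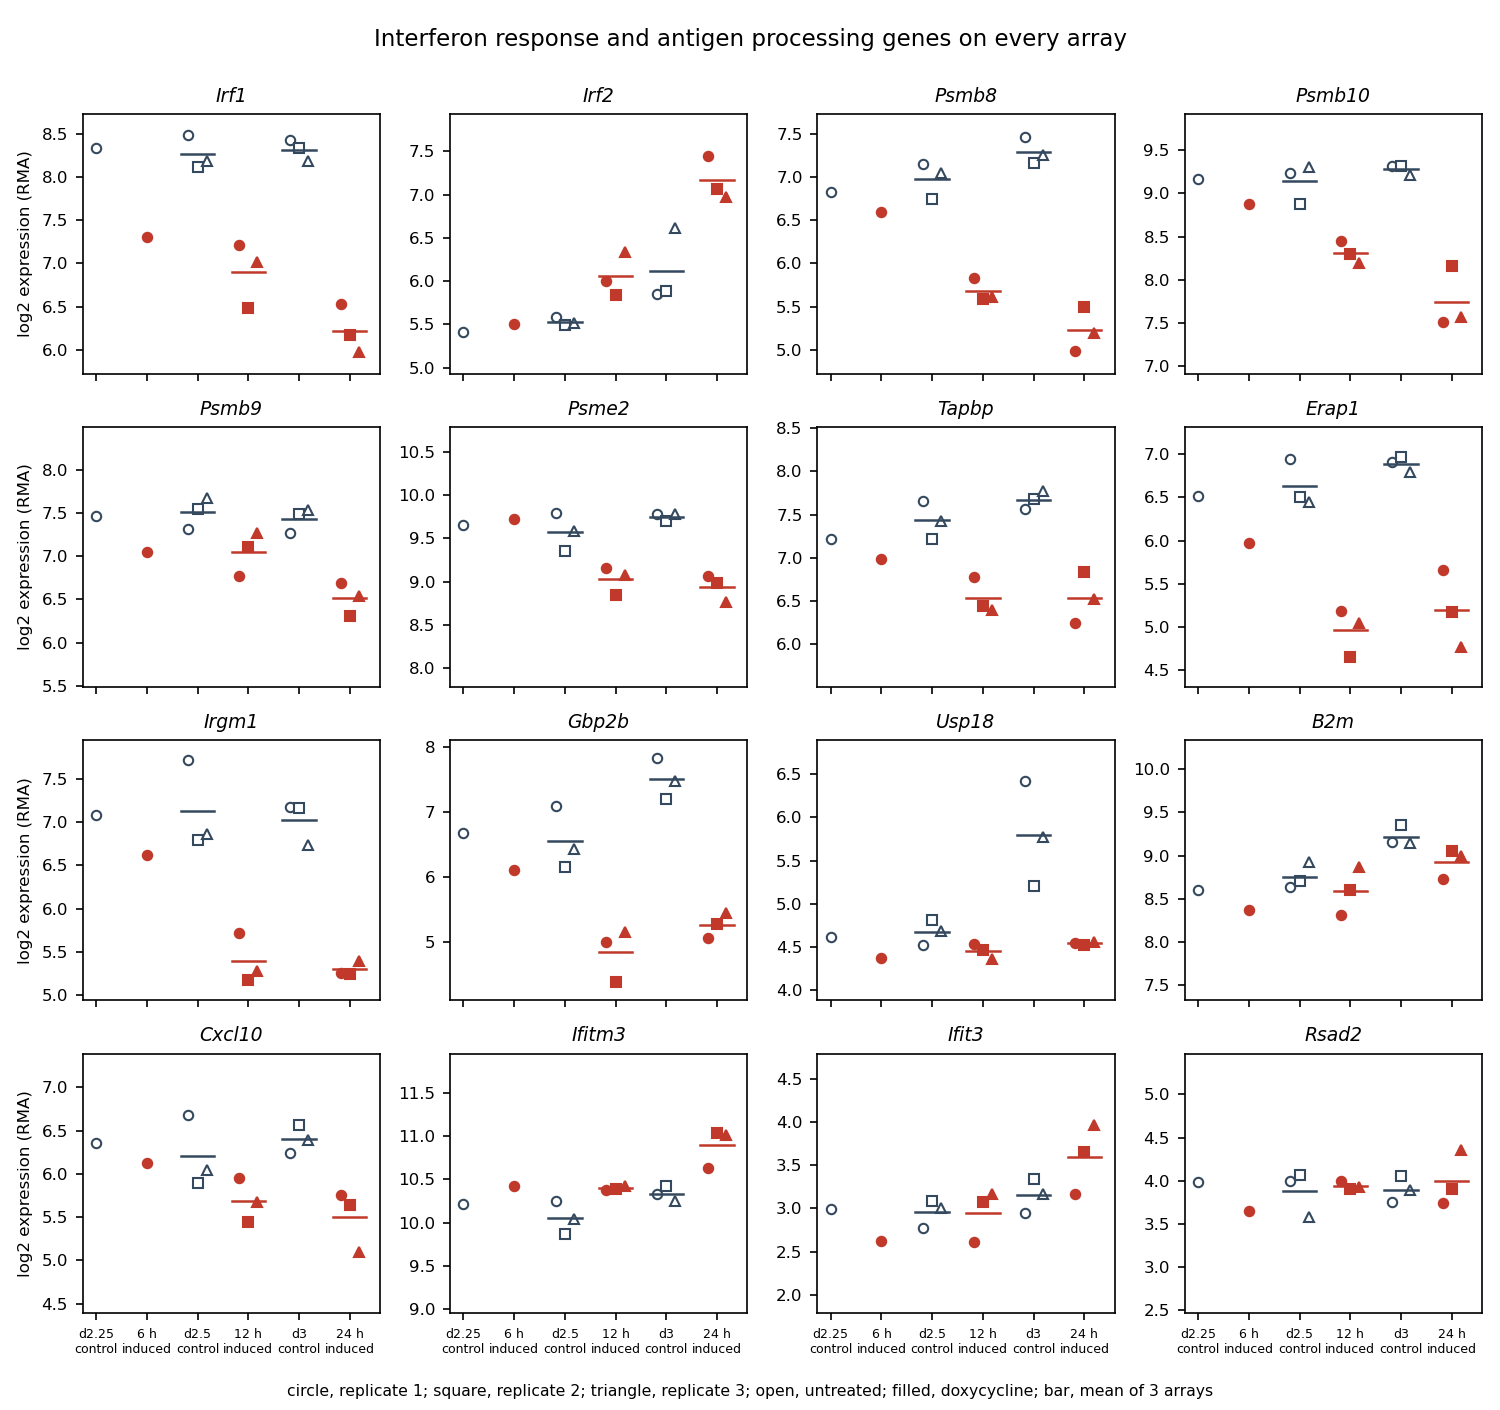
Log2 expression on each of the 14 arrays for 16 of the genes, by day and treatment; open symbols are untreated controls, filled symbols doxycycline, the symbol's shape gives the replicate and the bar is the mean of 3 arrays. Irf1, Psmb8, Psmb10, Erap1, Irgm1 and Gbp2b fall clear of the controls at 12 h and 24 h, Irf2 rises, Usp18 differs through its day 3 controls, and Ifit3 and Rsad2 overlap. Each panel has its own vertical range of at least 3 log2 units.

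All 5 immunoproteasome genes were below their controls on every induced array at 12 h and 24 h, and 2 were called at 12 h and 4 at 24 h. Psmb8, Psmb9 and Psmb10 encode the catalytic subunits that replace those of the standard proteasome, and Psme1 and Psme2 the alpha and beta subunits of the PA28 cap that opens it. Psmb8 measured 7.15, 6.75 and 7.04 in the day 2.5 controls and 5.83, 5.59 and 5.61 after 12 h, and 7.46, 7.16 and 7.25 in the day 3 controls and 4.99, 5.50 and 5.20 after 24 h. It fell by 1.31 ± 0.164 (2.47-fold, adjusted p = 0.000463) and then by 2.06 ± 0.164 (4.17-fold, adjusted p = 1.99e-06). No control came near an induced array, and the fall passed at 12 h under every set of arrays tried except without replicate 3.

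Psmb10 measured 9.24, 8.88 and 9.30 against 8.45, 8.30 and 8.19 at 12 h, and 9.32, 9.32 and 9.21 against 7.51, 8.16 and 7.57 at 24 h. It fell by 0.83 ± 0.178 (adjusted p = 0.0309) and by 1.54 ± 0.178 (2.90-fold, adjusted p = 6.91e-05), and its 12 h call was lost on leaving out any 1 replicate. Psmb9 measured 7.32, 7.54 and 7.67 against 6.77, 7.11 and 7.27 at 12 h, and 7.27, 7.49 and 7.53 against 6.69, 6.31 and 6.54 at 24 h. Its groups are close but apart at 12 h and further apart at 24 h, where it fell by 0.92 ± 0.165 (1.89-fold, adjusted p = 0.00308). At 12 h the change of -0.46 had an adjusted p of 0.372. The 24 h calls of Psmb9 and Psme2 were lost without replicate 2 and without replicate 3.

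At 24 h the cap genes moved least of the 5. Psme2 measured 9.78, 9.70 and 9.78 in the day 3 controls and 9.07, 8.99 and 8.77 after 24 h, and fell by 0.81 ± 0.149 (adjusted p = 0.00378). At 12 h it measured 9.80, 9.35 and 9.59 against 9.16, 8.85 and 9.08, a change of -0.55 ± 0.149 with an adjusted p of 0.122, or 0.0474 with the replicate block. Psme1 measured 9.95, 9.86 and 10.21 in the day 3 controls and 9.62, 9.57 and 9.47 after 24 h. Its groups were apart as well, and the change of -0.45 ± 0.13 had an adjusted p of 0.0623, or 0.045 with the block.

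The constitutive counterparts that Psmb8, Psmb9 and Psmb10 replace (Psmb5, Psmb6 and Psmb7) served as a comparison. The list also held Psme3, Psme4 and Pomp, other proteasome genes that are not such counterparts. Of these 6 genes, 0 were called at either time (limma, 1 with an unadjusted p under 0.05, lower at 24 h). Their changes ran from -0.41 to 0.10 at 24 h (lowest adjusted p 0.282) and from -0.20 to 0.02 at 12 h. For Psmb5, which Psmb8 replaces, the 24 h change was -0.11 with an interval of -0.42 to 0.20. It was -0.14 (-0.46 to 0.19) for Psmb6, the counterpart of Psmb9, and -0.20 (-0.45 to 0.06) for Psmb7, the counterpart of Psmb10. Psme3, a relative of the cap genes, changed by 0.01 (-0.27 to 0.29). All 3 induced arrays lay below all 3 controls for 1 of the 6 at each time (7.72% and 10.9% of all genes). These were Psmb5 at 12 h and Psmb7 at 24 h. The intervals of Psmb8 (-2.41 to -1.71), Psmb9 (-1.27 to -0.56) and Psmb10 (-1.92 to -1.15) lie wholly below those of their counterparts; the differences between the genes were not tested themselves.

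**Figure D3:**
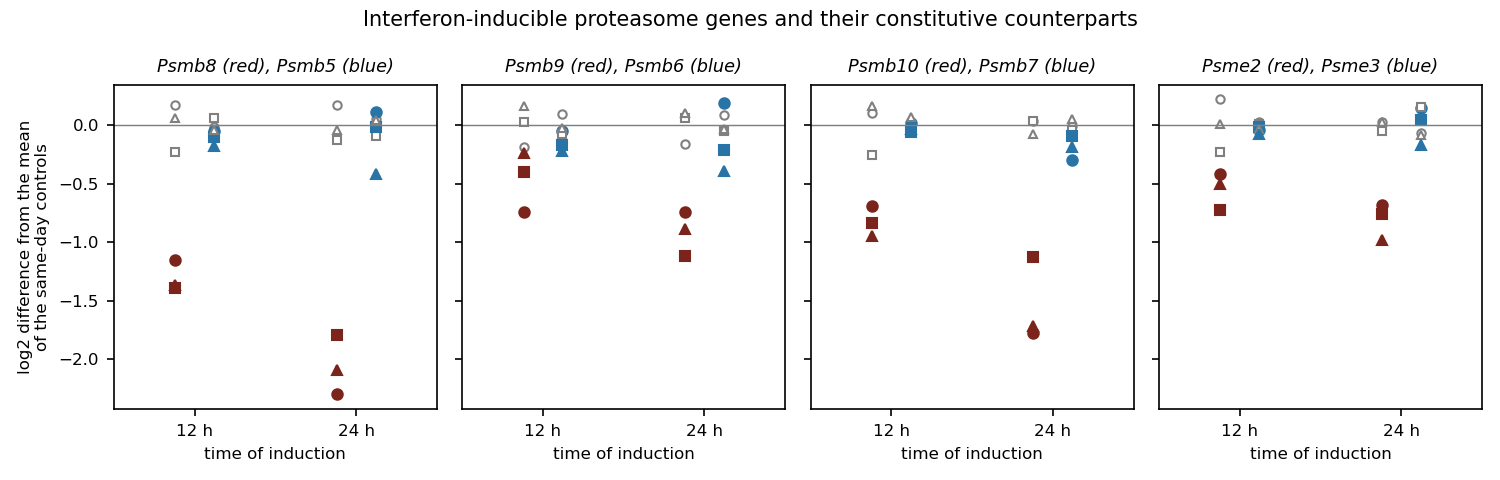
Log2 difference of each array from the mean of the 3 controls of the same day, for 4 interferon-inducible proteasome genes (red) at 12 h and 24 h. Blue symbols are the constitutive counterparts or, beside Psme2, Psme3, a relative of the cap genes. Open grey symbols are the controls and the symbol's shape gives the replicate. The red symbols lie below all controls in every panel, down to about the 4.17-fold mean fall of Psmb8 at 24 h. The blue ones lie nearer 0, with some of them among their controls, while those of Psmb5 at 12 h and Psmb7 at 24 h also lie below all controls.

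Of the 4 genes for peptide transport, trimming and loading, 2 fell at 12 h and 3 at 24 h. Erap1, the aminopeptidase that trims peptides in the endoplasmic reticulum, measured 6.94, 6.51 and 6.45 against 5.19, 4.65 and 5.05 at 12 h, and 6.91, 6.97 and 6.79 against 5.66, 5.18 and 4.77 at 24 h. It was well below its controls already at 12 h, and fell by 1.67 ± 0.216 there (3.18-fold, adjusted p = 0.000581) and by 1.69 ± 0.216 at 24 h (3.23-fold, adjusted p = 0.000167). Tapbp, or tapasin, which bridges the transporter and class I molecules, measured 7.66, 7.22 and 7.43 against 6.78, 6.44 and 6.40 at 12 h, and 7.57, 7.68 and 7.77 against 6.25, 6.84 and 6.52 at 24 h. It fell by 0.89 ± 0.175 (adjusted p = 0.0165) and by 1.14 ± 0.175 (2.20-fold, adjusted p = 0.000836), with no overlap at either time.

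The transporter genes moved less. Tap2 measured 5.79, 5.69 and 5.85 in the day 3 controls and 5.37, 5.07 and 5.39 after 24 h, and fell by 0.50 ± 0.136, just inside the threshold (adjusted p = 0.0465) and outside it under several other settings. Tap1 measured 6.08, 5.64 and 5.90 against 5.41, 5.50 and 5.66, where the groups overlap, and its change of -0.35 had an interval of -0.66 to -0.04 and an adjusted p of 0.247. Tap1 and Psmb9 lie head to head: their promoter windows, on opposite strands of chromosome 17, share 275 bases (chr17:34187306-34187580). Neither window holds ISRE or GAS letters in the forms searched.

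B2m, the light chain shared by all class I molecules, was the only class I gene measured and was not called. It measured 9.16, 9.35 and 9.14 in the day 3 controls and 8.73, 9.05 and 9.0 after 24 h, which do not overlap but lie close. The change was -0.29 with an interval of -0.63 to 0.06 (adjusted p = 0.413), and -0.16 (-0.51 to 0.18) at 12 h. Of 15 other class I assembly and class II genes, 1 was called at 24 h, where 5.46% of all genes were called (3.43% lower). It was H2-Q4, a class Ib gene, which fell by 0.67 ± 0.168 (adjusted p = 0.0301).

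Of the 4 interferon-inducible GTPases, 3 fell at both times, Irgm1 furthest of the 33 genes at 12 h and Gbp2b at 24 h. Irgm1, which acts on membranes around engulfed pathogens, measured 7.72, 6.80 and 6.86 in the day 2.5 controls and 5.72, 5.17 and 5.28 after 12 h, and 7.18, 7.17 and 6.74 in the day 3 controls and 5.26, 5.24 and 5.39 after 24 h. It fell by 1.73 ± 0.23 and by 1.74 ± 0.23 (3.33-fold at both times, adjusted p = 0.000699 and 0.000224). Only 14 of the 19938 genes had a lower change at 12 h.

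Gbp2b, a guanylate-binding protein, measured 7.10, 6.15 and 6.43 against 5.0, 4.38 and 5.15 at 12 h, and 7.83, 7.20 and 7.48 against 5.06, 5.28 and 5.44 at 24 h. It fell by 1.72 ± 0.252 (3.29-fold, adjusted p = 0.00171) and by 2.24 ± 0.252 (4.74-fold, adjusted p = 5.11e-05). Its day 3 controls were above its day 2.5 controls by 0.94 ± 0.252, without passing (adjusted p = 0.15) except with the replicate block (adjusted p = 0.0226), and its induced arrays overlapped between the times. Gbp7 measured 5.37, 4.99 and 5.08 against 4.57, 4.49 and 4.46 at 12 h, and 5.43, 5.66 and 5.33 against 4.78, 4.67 and 4.76 at 24 h, and fell by 0.64 ± 0.14 and 0.73 ± 0.14 (adjusted p = 0.0347 and 0.00485). Its 12 h call was lost after a second quantile normalization, with the compared groups alone and on leaving out any 1 replicate, and its 24 h call without replicate 2 or 3.

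Gbp3 was lower within every pair, by 0.26 to 1.08 at 12 h and by 0.61 to 0.96 at 24 h. Its controls differed widely between replicates (4.42 to 5.54 on day 2.5), and it was not called (adjusted p = 0.431 and 0.111). With the replicate block it was called at both times (adjusted p = 0.0038 at 24 h). The guanylate-binding proteins are a family of related genes, and whether a probe set of a member also picks up another member was not tested.

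The 10 measured antiviral genes did not move as a group: 0 were called at 12 h (limma, 1 higher and 1 lower at an unadjusted p under 0.05), and 2 fell and 1 rose at 24 h. Usp18, which removes ISG15 from proteins and dampens type I interferon signalling, measured 6.42, 5.21 and 5.77 in the day 3 controls and 4.55, 4.53 and 4.56 after 24 h. The induced arrays lay within the range of the day 2.5 controls (4.52, 4.81 and 4.69), and the 12 h arrays measured 4.54, 4.47 and 4.36. Usp18 thus fell by 1.25 ± 0.223 against the day 3 controls (2.39-fold, adjusted p = 0.0029). It rose between the control days by 1.13 ± 0.223 (adjusted p = 0.03), a call lost on leaving out any 1 replicate. It was the only 1 of the 33 genes called between the control days, against 0.757% of all genes (0.562% higher), although 28 of the 33 had a positive difference (median 0.17, against -0.007 over all genes). All 3 day 3 controls lay above all 3 day 2.5 controls for 7 of the 33 (6.12% of all genes).

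Cxcl10, a chemokine that draws T cells, measured 6.24, 6.57 and 6.39 in the day 3 controls and 5.75, 5.64 and 5.10 after 24 h. It fell by 0.90 ± 0.223 (1.87-fold, adjusted p = 0.0263), and the lowest value came from the array that stood apart, without which the call was lost. Ifitm3, which blocks the entry of viruses and is abundant in early embryonic cells, measured 10.33, 10.43 and 10.25 in the day 3 controls and 10.63, 11.04 and 11.01 after 24 h. It rose by 0.56 ± 0.148 (1.48-fold, adjusted p = 0.0393), above its controls on every array, and this call too was lost without replicate 3 of induced 24 h.

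The remaining 7 antiviral genes changed by -0.48 to 0.44 at 24 h, with adjusted p from 0.311 to 0.975. Ifit3, of a family that acts against viral RNA, measured 2.95, 3.34 and 3.17 in the day 3 controls and 3.17, 3.65 and 3.97 after 24 h. Rsad2, or viperin, measured 3.75, 4.05 and 3.89 against 3.74, 3.90 and 4.36, and both genes overlapped between the groups. Ifit1 changed by -0.03 (-0.60 to 0.55), Xaf1, a promoter of cell death, by -0.16 (-0.68 to 0.37), and Ifih1, a sensor of viral RNA, by -0.40 (-0.82 to 0.02). Bst2, or tetherin, which holds budding viruses at the membrane, measured 9.08, 8.98 and 8.78 against 7.75, 8.76 and 8.88, so that replicate 1 made most of the change of -0.48 (-1.0 to 0.04). Oas1a, a sensor of double-stranded RNA, measured 4.80, 5.26 and 5.43 against 4.93, 5.43 and 6.30. RMA compresses the changes of dim genes, so that the low values of Ifit1, Ifit3, Rsad2, Xaf1 and Ifih1 limit what could be seen of them.

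Whether the effect differed between 12 h and 24 h was tested directly. Of the 33 genes, 0 were called for such a change (limma adjusted p of 0.34 or more), against 0.426% of all genes (0.326% lower). Irf1, Psmb8, Psmb10 and Usp18 were the 4 genes with an unadjusted p under 0.05. The effect was further down at 24 h by 0.74 ± 0.279 for Irf1, with an interval of -1.33 to -0.14, by 0.76 ± 0.232 for Psmb8 (-1.25 to -0.26), by 0.71 ± 0.252 for Psmb10 (-1.25 to -0.17) and by 1.04 ± 0.316 for Usp18 (-1.72 to -0.36). A line term separated 0 of the 33 genes between iB1 and iEGS (limma, 1 with an unadjusted p under 0.05), against 0% of all genes. Among all genes, 1528 had an unadjusted p under 0.05. Without replicate 2 the line term called 380 of all genes and still 0 of the 33.

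At 6 h only 1 array per group exists, so these values carry no test. Irf1 was 7.31 after 6 h against 8.33 in the control, a difference of -1.02 (2.03-fold), and was the 1 gene of the 33 at least 2-fold lower, where 0.135% of all genes were and 0.356% were 2-fold apart in either direction. None was at least 2-fold higher (0.221% of all genes). Gbp2b differed by -0.56, Socs1 by -0.56, Erap1 by -0.55, Il15ra by -0.47 and Irgm1 by -0.47, while Psmb8 differed by -0.23 and Irf2 by 0.10. In all, 24 of the 33 genes were lower, with a median of -0.23 against 0 over all genes. No replicate backs these differences.

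Other genes of the pathway were listed by role. Of 87 measured, 1 rose and 0 fell at 12 h (0.813% and 0.577% of all genes), and 2 rose and 6 fell at 24 h (2.03% and 3.43% of all genes), with medians of -0.07 and -0.03. The rise at both times was in Ifngr2, the signalling subunit of the interferon gamma receptor. It measured 7.21, 6.99 and 7.41 in the day 2.5 controls and 8.70, 8.21 and 8.53 after 12 h, and 7.63, 7.05 and 7.27 in the day 3 controls and 8.69, 9.16 and 9.04 after 24 h. Ifngr2 rose by 1.28 ± 0.191 (adjusted p = 0.00191) and by 1.65 ± 0.191 (adjusted p = 6.66e-05), with no overlap, though its 12 h call was lost without replicate 3. At 24 h the count of 8 calls among these genes became 4, 1 and 2 on leaving out replicate 1, 2 or 3. The receptor genes of type I interferon were not called, with 24 h changes of -0.06 for Ifnar1 (-0.47 to 0.35) and 0.15 for Ifnar2 (-0.16 to 0.47).

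Sting1, an adaptor for sensing DNA, rose at 24 h by 0.65 ± 0.166 (adjusted p = 0.0346). Of 32 interferon-inducible effectors, 5 fell and 0 rose at 24 h (3.43% and 2.03% of all genes). The largest falls were in the partners Dtx3l and Parp9 and in Parp12. Dtx3l measured 6.94, 6.70 and 6.79 against 6.03, 5.75 and 4.81 and fell by 1.28 ± 0.24 (adjusted p = 0.00423), with its lowest value on the array that stood apart. Parp9 fell by 1.09 ± 0.206 (adjusted p = 0.00453) and Parp12 by 1.25 ± 0.28 (adjusted p = 0.015). Ifitm1 fell by 0.62 ± 0.159 (adjusted p = 0.0333), while Ifitm3 rose. Ifitm1 measured 10.77, 10.51 and 10.43 in the day 3 controls and 9.94, 9.89 and 10.01 after 24 h. These induced arrays lay within the range of its day 2.5 controls (10.07, 9.73 and 9.64). Gbp9 fell by 0.60 ± 0.149 (adjusted p = 0.0268), to 4.65, 4.78 and 4.79 from 5.55, 5.29 and 5.19. Its day 2.5 controls measured 4.69, 4.82 and 4.9. Between the control days, 1 of the 32 effectors was called, higher on day 3 (0.562% of all genes).

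The interferons themselves were not called at either time (limma, 0 of 7, with 2 higher at an unadjusted p under 0.05 at 24 h). Their 24 h changes ran from -0.15 for Ifnb1 to 0.45 for Ifna4, with a lowest adjusted p of 0.107, and Ifng changed by -0.01 (-0.30 to 0.28). Over the 14 arrays, Ifnb1 measured 2.80 to 3.58 and Ifna4 2.47 to 3.43, about as dim as Ifit1 and Ifit3. A change of such dim genes could be missed. Markers of cell types that carry much of this programme were measured beside it. Of 10 macrophage and leukocyte markers 0 were called at 12 h or 24 h (limma, 1 with an unadjusted p under 0.05, higher at 24 h). Their summed linear level was 247 to 288 in the day 3 controls and 208 to 385 after 24 h. Cd68 weighed most in this sum, at 7.15, 6.77 and 7.22 in the day 3 controls and 6.32, 7.3 and 7.49 after 24 h. The other markers of this list measured 5.57 or less, and changes of the dim ones could be missed. Of 5 lymphocyte and NK cell markers 0 were called (limma, 0 with an unadjusted p under 0.05), with sums of 83.8 to 98.9 and 88.5 to 125. Of 9 markers of embryonic fibroblasts, the kind of cell in the feeder layer, 1 rose and 1 fell at 24 h, and the sums of 766 to 805 and 695 to 863 overlapped. At 12 h the sum of these fibroblast markers was 941 to 1020 against 819 to 867 in the day 2.5 controls, with no overlap. Of the 9 genes, 0 were called (limma, 1 higher and 1 lower at an unadjusted p under 0.05). Their median change was -0.04, with 4 higher and 5 lower. Thy1 was the only 1 with all 12 h arrays above all controls, at 8.62, 9.03 and 9 against 7.18, 8.18 and 8.23. Tagln was lower in every same-numbered pair, at 7.99, 7.26 and 7.22 against 8.62, 7.52 and 8. The sum therefore does not show a rise of these markers as a set. Its part in the 12 h results was not tested. Of 8 endothelial markers 4 rose at 24 h, and of 6 blood progenitor markers 4 rose, while 6 of 7 primitive streak and epiblast markers fell.

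The promoter letters were set beside the calls. ISRE letters were found in 22 of the 36 genes with a promoter entry (61.1%) and in 3.99% of 27025 genes, and GAS letters in 9 of 36 (25%) against 9.55%; the 39 genes were chosen as interferon genes, so that this difference follows from the choice. Within the set, ISRE letters lay in 5 of 11 genes lower at 24 h (45.5%) and in 11 of 17 that were not called (64.7%). The 5 are Cxcl10, Erap1, Gbp2b, Gbp7 and Irgm1. GAS letters lay in 3 of the 11 (Gbp7, Irf1 and Psmb8) and in 2 of the 17. In Irf1 they lie at positions -90 to -82 from the gene start and in Psmb8 at -97 to -89. The Irgm1 promoter shown above has 2 overlapping runs of ISRE letters that end at position -15, and that of Gbp2b has 1 run at -137 to -128. The promoters shown were picked for their letters. Psmb9, Psmb10, Psme2 and Tapbp, also lower at 24 h, carried neither kind in the forms searched. Whether any factor binds at these letters was not tested. Letters for the induced factors were searched as well: CNGGAAGT, a form of the ETS site, lay in 5 of 36 promoters (13.9%, against 10.7% of all) and AGATAA, a form of the GATA site, in 3 of 36 (8.33%, against 12.7%), on either strand.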

How the data were processed

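RNA of 14 samples was hybridised to 1 Affymetrix array each after amplification of the complementary DNA. For 35556 probe sets the authors deposited log2 expression, which the submitters' processing notes credit to RMA and to Affymetrix Expression Console, without versions. RMA is meant to draw the arrays to a common distribution, but the deposited arrays still differed in median and spread. It also compresses dim signals. Arrays carry no counts, so the number of arrays limits the precision.

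Of the probe sets, 21789 had 1 symbol in the platform annotation, 1621 had several and 12146 were unnamed. The brightest probe set stood for each of the 19938 genes. The 12 arrays of the 4 groups of 3 entered 1 limma fit (limma 3.58.1, R 4.3.3, group means, 8 residual and 6.05 prior degrees of freedom), with Benjamini-Hochberg adjustment over all genes and a threshold of 0.05. Adjusted p-values, 95% intervals and standard errors come from that fit, except where the replicate block, the fit over all probe sets or the line term is named. The same code was tested on simulated data. The design text speaks of independent experiments, and p-values measure the spread between these samples only.

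The genes and lists were chosen with earlier results of these data known. Values by array, at the times described, are given for those of the 33 genes that were called, for the brightest of each role and for some others, which were chosen after their values were seen. Arrays of the same number deviated together within a day (correlations 0.57, 0.34 and 0.26 at 12 h and 0.52, 0.16 and 0.26 at 24 h). For different numbers the correlations ran from -0.41 to 0.17 at 12 h and from -0.53 to 0.38 at 24 h. The 0.38 was control replicate 2 with induced replicate 3, so the pairing is less clear at 24 h. The numbers were taken to pair the arrays, and a block on the number is an alternative. The alternatives also took in each replicate left out, another normalization, the mean of probe sets, a filter on dim genes, array weights and the compared groups alone.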

Additional observations from a re-analysis of the deposited data

Results flagged for a closer look

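Oas1a was singled out because its differences within same-numbered pairs were all negative at 12 h (-0.02, -0.26 and -0.35) and all positive at 24 h (0.13, 0.18 and 0.87). The effect at 24 h was 0.6 above that at 12 h. The test of that difference did not pass (limma, adjusted p = 0.997), and the largest value came from replicate 3 of induced 24 h, the array that stood apart.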

How the results depend on the processing

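With the replicate number as a block, 11 genes were called at 12 h (Psme2 and Gbp3 added to the 9) and 18 at 24 h (Psme1, Gbp3 and Il15ra added to the 15), and none was lost. Leaving out 1 replicate of every group gave 2 to 6 calls at 12 h and 7 to 14 at 24 h. Between the control days the 1 call became 2 under the replicate block and 2 with array weights (Gbp2b added in both), and 0 with dim genes left out (Usp18 is then not tested) or with the compared groups alone; leaving out a replicate gave 0 to 1, never Usp18. Between the induced groups the 1 call became 3 under the replicate block, 2 after a second quantile normalization and 7 with array weights, and 0 to 2 on leaving out a replicate. At 6 h, 0 genes were 2-fold apart when the probe sets of a gene were averaged, which lowers the difference of Irf1. Tap2 lost its 24 h call with arrays centred on their medians, with the compared groups alone (as did Ifitm3) and with a trended prior. Over all genes, array weights raised the calls from 277 to 798 at 12 h and from 1088 to 2634 at 24 h. The other pathway genes called at 24 h ranged from 1 to 18 around 8, and at 12 h from 0 to 4 around 1. No value of a called gene reversed its sign under any alternative run. Changes of dim genes are the least certain, since signal over background limits them.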
